A study of Mus musculus with 8 samples.

Results

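The 10 genes described here encode the enzymes that insert double bonds into fatty acids and lengthen them. They are the stearoyl-CoA desaturases Scd1, Scd2, Scd3 and Scd4, the front-end desaturase family Fads1, Fads2 and Fads3, and the elongases Elovl1, Elovl5 and Elovl6. They were taken by gene name from a table of 44422 genes and each name matched 1 row. The table holds RNA sequencing of inguinal white adipose tissue (iWAT) and brown adipose tissue (BAT) from male C57BL/6 mice aged 10 weeks, kept on normal chow at room temperature (22 °C). All mice carried loxP-flanked H1.2 alleles, the gene of a linker histone that binds between nucleosomes. H1.2AKO mice also carried Cre recombinase under the adiponectin promoter, which is active in mature adipocytes and not in the other cells of the fat pad, and littermates without Cre, labelled Flox, served as the wildtype (WT) controls. Each tissue and genotype had 2 libraries, 8 in all, and each library came from RNA that had been pooled over mice. The notes deposited with the data give 3 mice to a pool and the methods of the study give 2, and no source states whether the iWAT and BAT pools came from the same mice, so the p-values measure the spread between pools.

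De novo fatty acid synthesis in the cytosol ends at palmitate. Elovl6 lengthens palmitate to stearate in the endoplasmic reticulum, and Scd enzymes place a double bond at the delta-9 position to give palmitoleate and oleate, the main monounsaturated fatty acids of adipose triglyceride. Essential polyunsaturated fatty acids take another route, in which Fads2 (delta-6 desaturase), Elovl5 and Fads1 (delta-5 desaturase) act in turn to make arachidonate and its omega-3 counterparts. Elovl1 lengthens saturated and monounsaturated acyl chains to the very long chains of sphingolipids. In liver and fat, Scd1, Scd2, Elovl6, Fads1 and Fads2 are known targets of the sterol regulatory element binding proteins (SREBP), which turn on fatty acid and cholesterol synthesis.

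Of the 10 genes, 7 lie in 2 clusters on mouse chromosome 19 (GRCm38). The Fads cluster holds Fads3 (plus strand), Fads2 (minus strand) and Fads1 (plus strand) within 155 kb, from 10041548 to 10196870. The Scd cluster holds Scd3, Scd2, Scd4 (all plus strand) and Scd1 (minus strand) within 204 kb, from 44203288 to 44407709. Elovl6 is on chromosome 3 (129532386 to 129638495), Elovl1 on chromosome 4 (118428093 to 118432953) and Elovl5 on chromosome 9 (77917364 to 77984519), all on the plus strand. Elovl1 overlaps Cdc20 on the opposite strand, and since no source states that reads were counted by strand, reads from the overlap cannot be told apart.

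RefSeq windows of 300 bases (250 before and 50 after the annotated start, GRCm38.p6) were at hand for 7 of the 10 members, 8 windows in all because Elovl1 had 2. The windows of Fads2, Fads3, Elovl1 (its upstream start) and Elovl5 are printed because these are the members with a window whose transcripts differed between the depots below, Fads2 also standing apart between the genotypes. Each runs 5′ to 3′ along its gene, and capitals mark a CCAAT box (CCAAT, or ATTGG on the other strand) or an E-box (CACGTG).
Fads2, chr19:10101454-10101753, minus strand: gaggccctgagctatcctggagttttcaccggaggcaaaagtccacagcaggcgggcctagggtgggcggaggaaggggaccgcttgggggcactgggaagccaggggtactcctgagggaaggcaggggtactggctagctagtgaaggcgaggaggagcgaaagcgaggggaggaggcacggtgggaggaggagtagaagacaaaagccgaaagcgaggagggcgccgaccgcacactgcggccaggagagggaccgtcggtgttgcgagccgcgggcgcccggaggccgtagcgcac
Fads3, chr19:10041298-10041597, plus strand: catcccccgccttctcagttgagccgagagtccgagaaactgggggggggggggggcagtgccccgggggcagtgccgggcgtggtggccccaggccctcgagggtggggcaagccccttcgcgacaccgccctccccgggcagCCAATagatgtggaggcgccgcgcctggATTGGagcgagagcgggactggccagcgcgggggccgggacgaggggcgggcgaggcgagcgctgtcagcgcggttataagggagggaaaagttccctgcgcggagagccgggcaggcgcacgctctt
Elovl1, chr4:118427843-118428142, plus strand: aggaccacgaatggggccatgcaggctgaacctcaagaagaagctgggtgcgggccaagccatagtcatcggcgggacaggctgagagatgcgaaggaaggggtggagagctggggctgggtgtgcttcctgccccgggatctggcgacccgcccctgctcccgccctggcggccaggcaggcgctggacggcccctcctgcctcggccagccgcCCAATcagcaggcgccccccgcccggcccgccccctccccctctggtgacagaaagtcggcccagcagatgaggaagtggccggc
Elovl5, chr9:77917115-77917414, plus strand: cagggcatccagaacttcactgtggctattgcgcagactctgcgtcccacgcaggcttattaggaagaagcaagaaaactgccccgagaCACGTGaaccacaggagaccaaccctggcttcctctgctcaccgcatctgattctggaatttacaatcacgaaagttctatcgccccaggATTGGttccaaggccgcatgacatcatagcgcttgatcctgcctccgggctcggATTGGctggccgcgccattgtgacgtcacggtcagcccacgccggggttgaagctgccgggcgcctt
CCAAT boxes, the motif bound by the factor NF-Y, were found in 3 of the 8 member windows, those of Fads3, Elovl1 and Elovl5, against 37.4% of 32851 windows of the same length. The E-box CACGTG was found in 1 of the 8, that of Elovl5, against 7.15% of all windows. The SREBP site TCACCCCAC and its core CACCCCAC were in 0 of the 8 member windows, against 0.551% and 2.87% of all windows. The direct repeats of AGGTCA with 1 or 4 bases between them, read by PPAR and LXR receptors with RXR, were also in 0 of the 8, against 0.0396% and 0.0152%. Each motif was searched on both strands and the SREBP core lies within the longer site. A missing match says only that these letters are not in this window. For Fads2, nearly all of the window lies downstream of the start of the GENCODE model (10101746), so bases upstream of that start were hardly searched.

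The libraries held 16118634 to 17480325 reads over the listed genes, recovered as whole reads from the deposited FPKM (fragments per 1000 bases of transcript and 1000000 fragments). The library total behind these FPKM was not the listed reads and is given with the depot comparison below. H1.2 itself (Hist1h1c) was at 23.7 and 24.2 FPKM in iWAT of WT mice and at 2.26 and 1.73 in iWAT of H1.2AKO mice. In BAT it was at 36.8 and 43.3 FPKM in WT and at 0.177 and 1.97 in H1.2AKO, so its level followed the labels in all 8 libraries. Adipocyte markers were high in every library (Fabp4, the fatty acid binding protein of adipocytes, at 1302 to 1745 FPKM), and Ucp1 was at 2490 to 2856 FPKM in BAT against 0.547 to 3.41 in iWAT. Libraries of 1 group differed in tissue content. The summed level of 12 skeletal muscle genes was 170 FPKM in iWAT WT replicate 1 and 103 in BAT H1.2AKO replicate 1, against 1635 to 4345 in the other 6. The summed level of 9 immediate early and heat shock genes, which respond to the handling of tissue, was 69.8 FPKM in iWAT WT replicate 2, the lowest of the libraries, and 111 to 312 in the other 7. In bulk tissue, fewer cells of a type and less RNA per cell cannot be told apart.

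Scd1 carried nearly all of the Scd signal and was among the most abundant transcripts of both depots. In iWAT it was at 4833 and 2042 FPKM in WT and at 3935 and 4973 in H1.2AKO. In BAT it was at 5607 and 4873 FPKM in WT and at 6092 and 7047 in H1.2AKO. It ranked between the 5th and the 10th of all genes by FPKM in every library, took 1.32% to 3.02% of all listed reads, and made up 96.3% to 98.2% of the summed Scd FPKM in iWAT and 97.7% to 99.2% in BAT. The library that stood out was iWAT WT replicate 2, whose Scd1 was 2.37 times lower than that of its replicate.

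Scd2, the isoform known from brain and from early life in the mouse, followed at a far lower level. It was at 86.0 and 40.2 FPKM in iWAT of WT mice and at 124 and 189 in iWAT of H1.2AKO mice. In BAT it was at 47.2 and 53.8 FPKM in WT and at 120.0 and 168 in H1.2AKO. All 4 H1.2AKO libraries lay above all 4 WT libraries, whichever depot they came from. Scd2 made up 1.75% to 3.66% of the summed Scd FPKM in iWAT and 0.835% to 2.33% in BAT.

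Scd3, known from mouse skin and sebaceous gland, and Scd4, known from mouse heart, were near the lower limit of these libraries. Scd3 was at 0.107 to 1.13 FPKM, from 8 to 80 reads a library. The exact 95% Poisson interval of the lowest, iWAT WT replicate 2, was 0.0463 to 0.211 FPKM and that of the highest, iWAT H1.2AKO replicate 2, was 0.896 to 1.41, both covering counting error only. Scd4 was at 0.0494 to 0.235 FPKM, from 4 to 13 reads, and its mean stayed below the minimum for testing in every comparison. Transcripts of the Scd genes share sequence. Of the 50-base words in Scd3 transcripts, 4.77% also occur in Scd1 and 3.89% in Scd2, and of those in Scd4, 2.26% occur in Scd1. Scd3 had 37.7 to 163 reads for every 1000000 reads of Scd1, and Scd4 10.9 to 30.0, so a small share of misassigned Scd1 reads would reach these counts. How the study treated reads with several matches is not given in the sources used here, and the values of Scd3 and Scd4 are therefore uncertain.

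Among the front-end desaturases Fads3, whose product acts on sphingoid bases, was the most abundant in all 8 libraries. It was at 60.6 and 48.7 FPKM in iWAT of WT mice, 48.2 and 55.5 in iWAT of H1.2AKO mice, 12.1 and 24.1 in BAT of WT mice and 16.8 and 28.4 in BAT of H1.2AKO mice. Fads1 was at 26.9 and 21.9 FPKM in iWAT of WT mice, 26.8 and 32.5 in iWAT of H1.2AKO mice, 9.43 and 10.1 in BAT of WT mice and 9.69 and 10.5 in BAT of H1.2AKO mice. Both were lower in every BAT library than in any iWAT library. Fads2 was at 10.9 and 8.32 FPKM in iWAT of WT mice, 12.9 and 18.4 in iWAT of H1.2AKO mice, 7.01 and 8.25 in BAT of WT mice and 10.2 and 10.1 in BAT of H1.2AKO mice. Here the H1.2AKO libraries lay above the WT libraries of their own depot, and the depots overlapped. The deposited gene model of Fads2 (1508 bases) runs from 10101503 to 10064164 on its minus strand. The GENCODE model runs from 10101746 to 10062765, so the FPKM of Fads2 rests on a shorter transcript.

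Elovl6 was the leading elongase among the members, with 63.5% to 81.2% of their summed elongase FPKM in iWAT and 74.6% to 84.0% in BAT. It was at 142 and 65.5 FPKM in iWAT of WT mice, 116 and 162 in iWAT of H1.2AKO mice, 119.7 and 161 in BAT of WT mice and 139.9 and 186 in BAT of H1.2AKO mice. Its groups overlapped in both depots, and iWAT WT replicate 2 was again the lowest library. Elovl5 was at 28.5 and 23.7 FPKM in iWAT of WT mice, 26.1 and 24.9 in iWAT of H1.2AKO mice, 34.7 and 36.6 in BAT of WT mice and 35.1 and 29.4 in BAT of H1.2AKO mice. Elovl1 was at 14.01 and 13.97 FPKM in iWAT of WT mice, 13.98 and 12.6 in iWAT of H1.2AKO mice, 5.99 and 8.68 in BAT of WT mice and 7.18 and 6.08 in BAT of H1.2AKO mice. For these 2 elongases the libraries divided by depot and not by genotype.

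**Figure D1:**
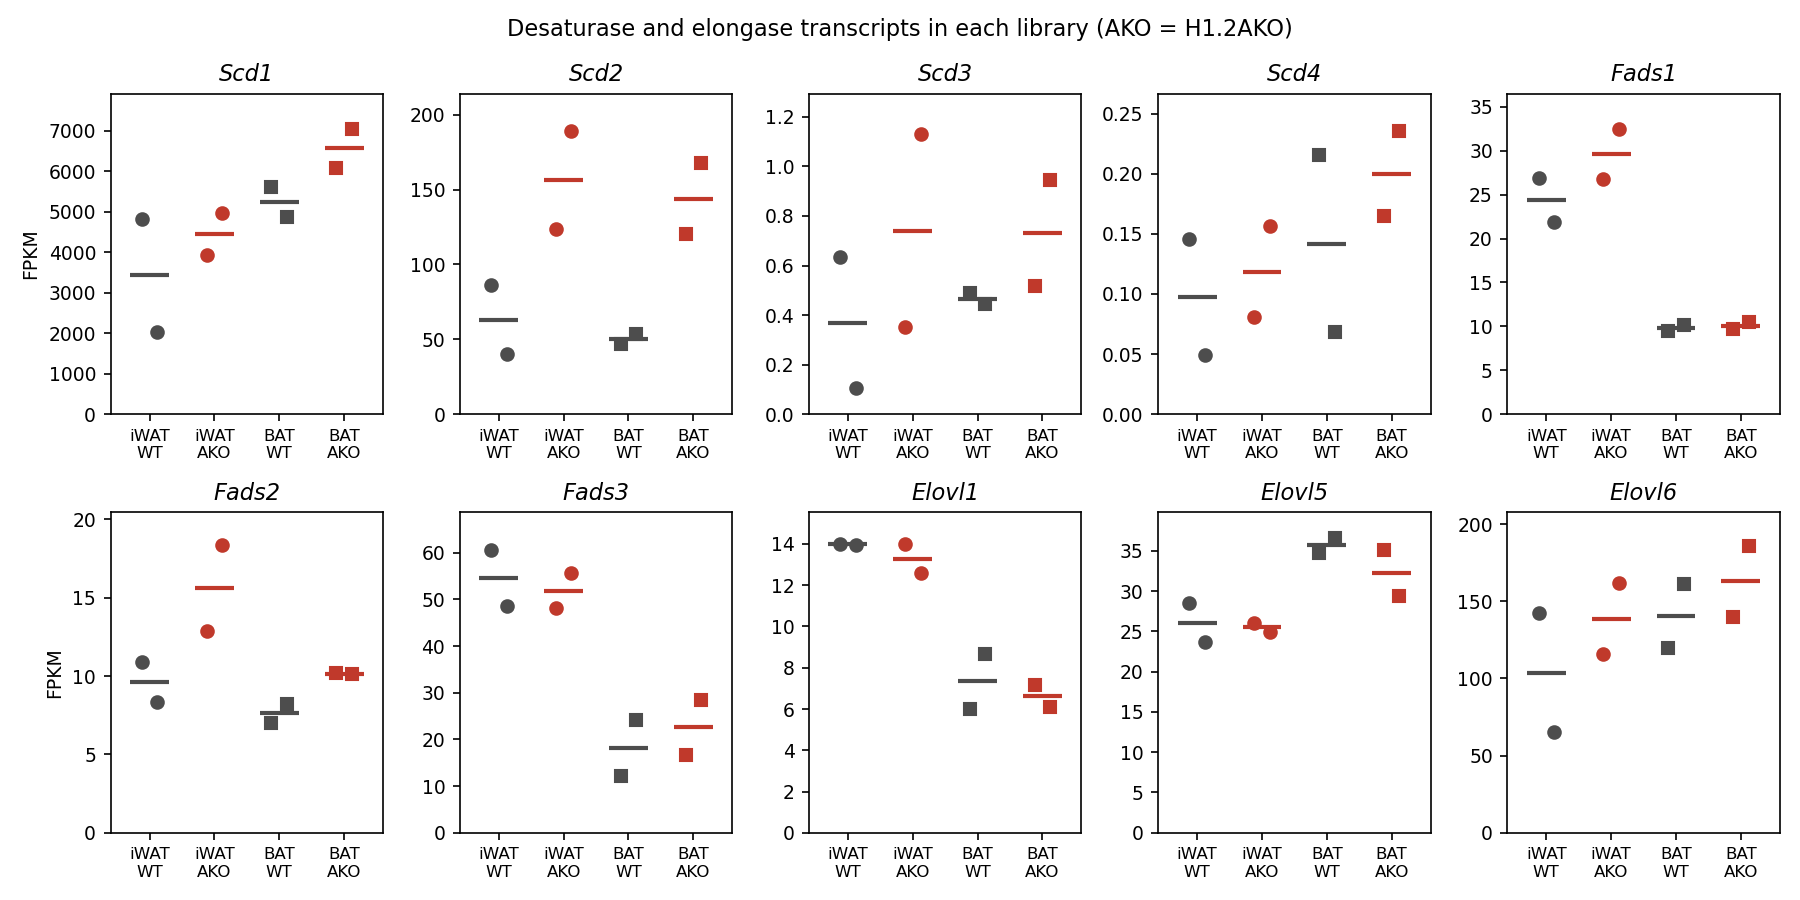
FPKM (vertical axis, from 0, its own scale in each panel) of the 10 members in the 8 libraries. Each point is 1 library, circles are iWAT, squares are BAT, grey is WT, red is H1.2AKO and the line is the mean of the 2 pools. Scd2 is higher in H1.2AKO in both depots, Fads1, Fads3 and Elovl1 are lower in BAT, and iWAT WT replicate 2 is low for Scd1 (2042 FPKM), Scd2 (40.2) and Elovl6 (65.5).

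The members differed in how far replicate pools lay apart. Between the iWAT WT pools the ratio of the higher to the lower was 2.37 for Scd1, 2.14 for Scd2, 2.17 for Elovl6 and 5.90 for Scd3, with replicate 1 the higher in each. For Fads1, Fads2 and Fads3 the same ratio was 1.23 to 1.31, and for Elovl1 1.00. The genes of this first set thus shared a low value in the library that was also lowest for the handling genes and highest for muscle genes, and the part of either in these levels was not tested. In BAT the ratio for Fads3 was 2.00 between the WT pools and 1.69 between the H1.2AKO pools, and in both genotypes replicate 2 was the higher. Larger ratios in BAT came from the low members, 3.17 for Scd4 between the WT pools and 1.83 for Scd3 between the H1.2AKO pools.

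The first question was whether deletion of H1.2 from adipocytes altered these transcripts within each depot. Scd2 was the member with the largest difference. Its mean was 63.1 ± 32.4 (SD, n = 2) FPKM in WT against 156 ± 46.1 in H1.2AKO in iWAT, a ratio of 2.48, and 50.5 ± 4.64 against 144 ± 33.9 FPKM in BAT, a ratio of 2.85, with no overlap of pools in either depot. On the log2(FPKM + 0.5) scale the difference was 1.37 (SE 0.38, adjusted p = 0.626) in iWAT and 1.49 (SE 0.38, adjusted p = 0.246) in BAT, and averaged over both depots it was 1.43 (SE 0.27, 95% interval 0.79 to 2.07, adjusted p = 0.167), by limma with Benjamini-Hochberg adjustment over all genes tested. Scd2 therefore did not pass the threshold of 0.05. It ranked 9th of 12594 genes by the size of the rise averaged over both depots and 99th by p, with an unadjusted p of 0.00131. An exact permutation of genotype within depot gave Scd2 p = 0.0556 (2-sided, 0.278 after adjustment over the 10 members tested in this way), the smallest p that 36 permutations allow. It permutes each depot separately and, like the averaged fit, treats iWAT and BAT pools as independent. If they came from the same mice, 2 pools would stand against 2, where the smallest p is 0.333.

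Fads2, which opens the polyunsaturated route, was the other member whose genotypes did not overlap in either depot. Its mean was 9.61 ± 1.81 (SD, n = 2) FPKM in WT against 15.6 ± 3.90 in H1.2AKO in iWAT, a ratio of 1.62, and 7.63 ± 0.877 against 10.16 ± 0.0380 in BAT, a ratio of 1.33. The log2 difference was 0.66 (SE 0.19, adjusted p = 0.640) in iWAT, 0.39 (SE 0.19, adjusted p = 0.466) in BAT and 0.53 (SE 0.14, adjusted p = 0.240) averaged. Its exact permutation p within depot was also 0.0556, again the smallest possible and again with the pools of the depots taken as independent. Fads1, which acts later on the same route, differed by 0.27 (SE 0.13) in iWAT and 0.04 (SE 0.13) in BAT.

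Scd1 was higher on average in H1.2AKO in both depots, by 0.49 (SE 0.39, adjusted p = 0.976) in iWAT and 0.33 (SE 0.39, adjusted p = 0.776) in BAT on the log2 scale. The BAT pools did not overlap and the iWAT pools did. Without iWAT WT replicate 2 the iWAT difference of Scd1 was -0.13, and with the muscle level as a covariate its BAT difference was -0.08, so no direction can be given. Elovl6 behaved likewise, with differences of 0.50 (SE 0.38) in iWAT and 0.21 (SE 0.38) in BAT that became -0.06 without iWAT WT replicate 2 and -0.07 with the muscle covariate. For Scd3 the differences were 0.51 (SE 0.41) and 0.33 (SE 0.41). Elovl1 and Elovl5 differed by -0.07 (95% interval -0.48 to 0.34) and -0.03 (-0.32 to 0.26) in iWAT and by -0.12 (-0.53 to 0.29) and -0.15 (-0.44 to 0.14) in BAT. Fads3 differed by -0.07 (SE 0.36) in iWAT and 0.34 (SE 0.36) in BAT.

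**Figure D2:**
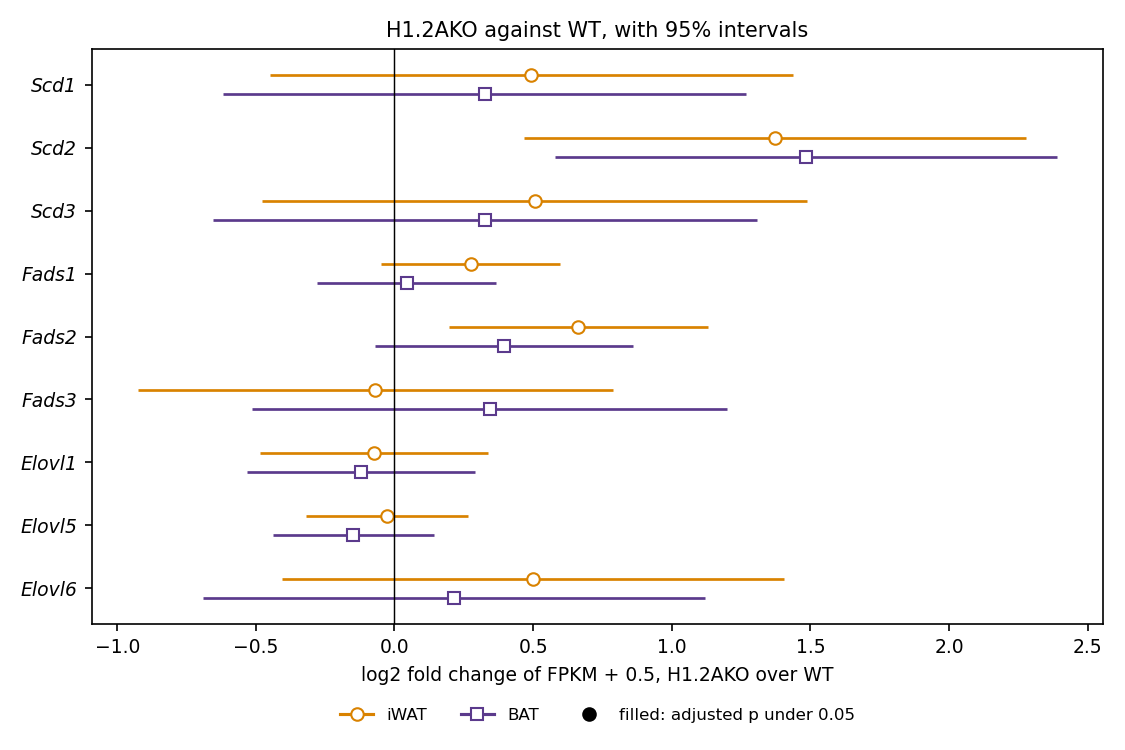
Log2 fold change of FPKM + 0.5, H1.2AKO over WT (horizontal axis), of the 9 members tested, in iWAT (circles) and BAT (squares), with unadjusted 95% intervals from limma. All symbols are open because 0 members passed an adjusted p of 0.05, and the interval lies above 0 for Scd2 in both depots and for Fads2 in iWAT.

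By count, 0 of the 9 members tested passed the threshold in iWAT, where 0% of 14349 genes did, and 0 of 9 in BAT, where 0% of 13190 genes did. Averaged over both depots 0 of 9 passed, against 0.00794% of 12594 genes, which is the single gene Svep1 (-1.17, adjusted p = 0.0361), named here after its value was seen. The deleted gene Hist1h1c itself reached an adjusted p of 0.0771 in that average. At an unadjusted p under 0.05, 2 members (Scd2 and Fads2) were higher in iWAT against 2.59% of all genes, 1 (Scd2) in BAT against 6.22%, and 2 (Scd2 and Fads2) in the average against 5.49%. Pools did not overlap, with H1.2AKO higher, for Scd2 and Fads2 in iWAT (2 of 9, against 16.7% of genes) and for Scd1, Scd2, Scd3 and Fads2 in BAT (4 of 9, against 22.4%). In both depots at once this held for 2 of 9, against 5.34% of genes. Scd3 was tested in BAT only through its H1.2AKO pools, since both WT values (0.488 and 0.444 FPKM) were under the minimum of 0.5. Its reads there were 25 and 24 in WT against 26 and 48 in H1.2AKO, so its entry in the BAT count is no support for a difference. With limma-voom on the recovered reads, 0 members passed in either depot or in the average, beside 5, 20 and 30 of all genes. The median log2 difference of the 9 members was 0.49 in iWAT and 0.33 in BAT, where the median of all genes tested was -0.00 and 0.01. Single libraries decided both values. Leaving out iWAT WT replicate 2 gave -0.06 in iWAT, with 4 of 9 members positive. The BAT value was 0.00 without BAT WT replicate 1, 0.01 without BAT H1.2AKO replicate 2 and -0.03 with the muscle level as a covariate, so no direction can be given for the members as a group.

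Ratios between members within 1 library do not depend on the library's scaling. They were computed for 10 gene pairs chosen after the levels had been seen and are given as a description without a test. The ratio of Scd2 to Scd1 was 0.0178 and 0.0197 in iWAT of WT mice and 0.0314 and 0.0380 in iWAT of H1.2AKO mice. In BAT it was 0.00842 and 0.0110 in WT, against 0.0197 and 0.0238 in H1.2AKO. The WT pools of iWAT, which differed 2.37 times in Scd1 and 2.14 times in Scd2, were thus close in the ratio, and the mean ratio was 1.85 times higher in H1.2AKO in iWAT and 2.24 times in BAT. Among all 12594 genes tested in both depots, the ratio to Scd1 lay apart and higher in H1.2AKO in both depots for 35, or 0.278%, and Scd2 was the only member among them.

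The ratio of Fads2 to Fads1, neighbours in the Fads cluster, was 0.405 and 0.380 in iWAT of WT mice and 0.480 and 0.566 in iWAT of H1.2AKO mice. In BAT it was 0.743 and 0.816 in WT, against 1.05 and 0.965 in H1.2AKO. The 4 groups kept apart from each other, and the mean ratio was 1.33 times higher in H1.2AKO in iWAT and 1.29 times in BAT. Of the 12594 genes, 1.1% had a ratio to Fads1 that lay apart and higher in H1.2AKO in both depots, Scd2 and Fads2 among them. Elovl6 over Scd1 showed no such difference. It was 0.0294 and 0.0321 in iWAT of WT mice and 0.0294 and 0.0325 in iWAT of H1.2AKO mice, so that Elovl6 and Scd1 varied together across the iWAT pools. In BAT it was 0.0214 and 0.0331 in WT, against 0.0230 and 0.0264 in H1.2AKO. Of the remaining pairs, Scd2 over Fads2 and Scd2 over Fasn lay apart and higher in H1.2AKO in both depots, Scd2 over Acly in iWAT alone and Scd2 over Sqle in BAT alone. Scd1 over Fasn and Elovl6 over Fasn lay apart in the other direction in BAT, with mean ratios in H1.2AKO of 0.812 and 0.758 times those in WT, and overlapped in iWAT.

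**Figure D3:**
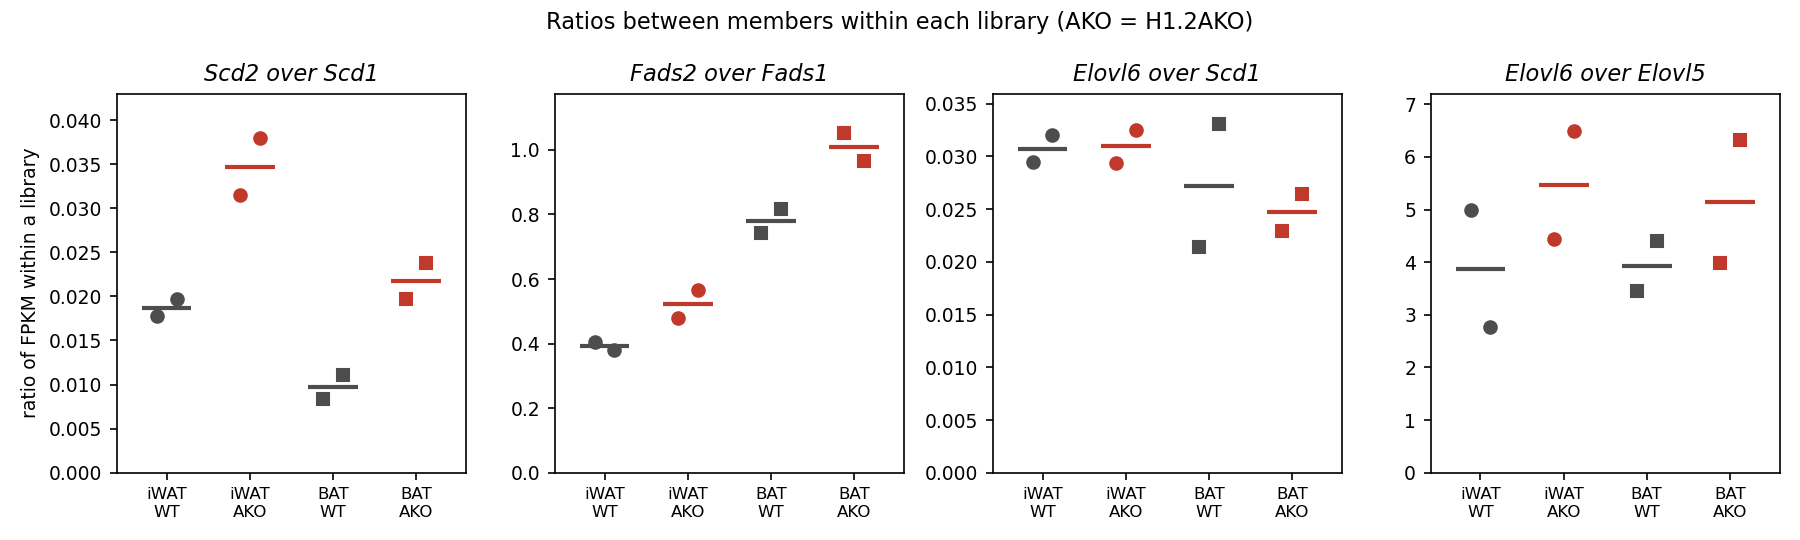
Ratio of the FPKM of 2 members within each library (vertical axis, from 0), with circles for iWAT, squares for BAT, grey for WT, red for H1.2AKO and a line at the mean of the 2 pools. Scd2 over Scd1 and Fads2 over Fads1 lie apart between genotypes in both depots, whereas Elovl6 over Scd1 and Elovl6 over Elovl5 overlap.

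The transcripts whose course over the 8 libraries was closest to a member were found by the root mean square difference in log2(FPKM + 0.5) after subtraction of each depot's mean, among 10936 genes with at least 1 FPKM on average in both depots. For Scd2 they included Gm6484, Gm14290, Mid1ip1 (an activator of acetyl-CoA carboxylase) and Ptger3 (a prostaglandin E receptor), with differences of 0.19 to 0.25 against a spread of 0.79 of Scd2 itself. For Fads2 they were Plin2 (a lipid droplet coat protein), Stard4 (a sterol carrier), Mfsd12, Lacc1 and Morc4, at 0.07 to 0.10 against 0.32. For Scd1 they included Agpat2 (an acyltransferase of triglyceride synthesis), Fam69b and H2-Q10, at 0.09 to 0.12 against 0.39. For Elovl6 they included Unc119, Jazf1, Aspg and Trabd2b, at 0.12 to 0.17 against 0.39.

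Genes that feed the desaturases and elongases were compared by lists. All 7 of 7 genes that supply acyl-CoA (Acly, Acaca, Acacb, Fasn, Acss2, Me1 and Slc25a1) had a positive difference in both depots, with a median of 0.37 in iWAT and 0.61 in BAT, and 0 of 7 passed the threshold in either. Without iWAT WT replicate 2, 4 of 7 were positive in iWAT and the median was 0.02. In BAT 6 of 7 were positive without BAT WT replicate 1 (median 0.47) and with the muscle covariate (0.48). ATP citrate lyase, Acly, was at 605 and 338 FPKM in iWAT of WT mice and 671 and 1001 in iWAT of H1.2AKO mice, and at 419 and 719 in BAT of WT mice and 1077 and 1533 in BAT of H1.2AKO mice. Its pools did not overlap in either depot and the averaged log2 difference was 1.04 (SE 0.28, adjusted p = 0.245). Acss2, which makes acetyl-CoA from acetate, differed by 0.77 (SE 0.26, adjusted p = 0.323) and the citrate carrier Slc25a1 by 0.55 (SE 0.20, adjusted p = 0.352) on the same scale.

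The 5 tested of 6 genes of cholesterol synthesis and uptake, which SREBP2 controls, were also all positive in both depots, with medians of 0.87 and 0.72 and 0 passing. Leaving out iWAT WT replicate 2 gave a median of 0.27 in iWAT, and the muscle covariate gave 0.35 in BAT. Of the 5, 4 were positive with that covariate, in iWAT without H1.2AKO replicate 2, and in BAT without WT replicate 2 or without H1.2AKO replicate 1. Sqle, squalene epoxidase, was at 5.02 and 2.24 FPKM in iWAT of WT mice and 7.08 and 9.18 in iWAT of H1.2AKO mice, and at 3.23 and 3.48 in BAT of WT mice and 5.76 and 5.94 in BAT of H1.2AKO mice. Of 14 regulators 7 were positive in iWAT and 11 in BAT, and 0 of 14 passed. Mlxipl, the carbohydrate response factor ChREBP, differed by 0.71 (SE 0.14, adjusted p = 0.170), Mid1ip1 by 0.98 (SE 0.24, adjusted p = 0.229) and Ppara, the receptor that drives fatty acid oxidation, by -0.64 (SE 0.10, adjusted p = 0.109), all averaged over both depots. Ppara was at 1.82 and 1.48 FPKM in iWAT of WT mice and 1.14 and 0.907 in iWAT of H1.2AKO mice, and at 32.6 and 27.7 in BAT of WT mice and 17.6 and 17.0 in BAT of H1.2AKO mice.

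Among the genes that complete each elongation round, differences lay on both sides of 0. The condensation step that an Elovl enzyme carries out is followed by Hsd17b12, the dehydratases Hacd1 to Hacd4 and Tecr. For these 6 genes the median difference was 0.06 in iWAT and -0.04 over the 5 tested in BAT, and 0 passed. In BAT the enoyl-CoA reductase Tecr was at 0.29 (SE 0.16, adjusted p = 0.508), Hsd17b12 at 0.21 (SE 0.15, adjusted p = 0.618) and Hacd1 at -0.25 (SE 0.17, adjusted p = 0.581). The cytochrome b5 genes and their reductases, which hand electrons to desaturases, had medians of 0.01 in iWAT and -0.06 in BAT over 5 tested of 6. Within them Cyb5b, the outer mitochondrial membrane form, differed by 0.46 (SE 0.16, adjusted p = 0.330) and Cyb5a, the microsomal form, by -0.21 (SE 0.07, adjusted p = 0.305) in the average. The 4 tested of 5 acyl-CoA synthetases had medians of 0.18 and 0.10, with Acsl5 at 0.37 (SE 0.10, adjusted p = 0.241) and Acsl1 at -0.27 (SE 0.10, adjusted p = 0.358). The 7 genes of the peroxisomal step that ends docosahexaenoate synthesis were all negative in iWAT (median -0.07). In BAT 4 were positive and 3 negative (median 0.00, 2 lower at an unadjusted p under 0.05). Single settings turned the iWAT signs of this list. There 4 of 7 were positive without iWAT WT replicate 1 (median 0.01) and 6 of 7 relative to adipocyte markers (median 0.13). The 7 esterification genes had medians of 0.16 and, over 6 tested in BAT, -0.00, with Gpam, the first acyltransferase of glycerolipid synthesis, at -0.30 (SE 0.08, adjusted p = 0.245). None of these lists had a gene past the threshold by limma in either depot, where 0% of all genes passed.

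**Figure D4:**
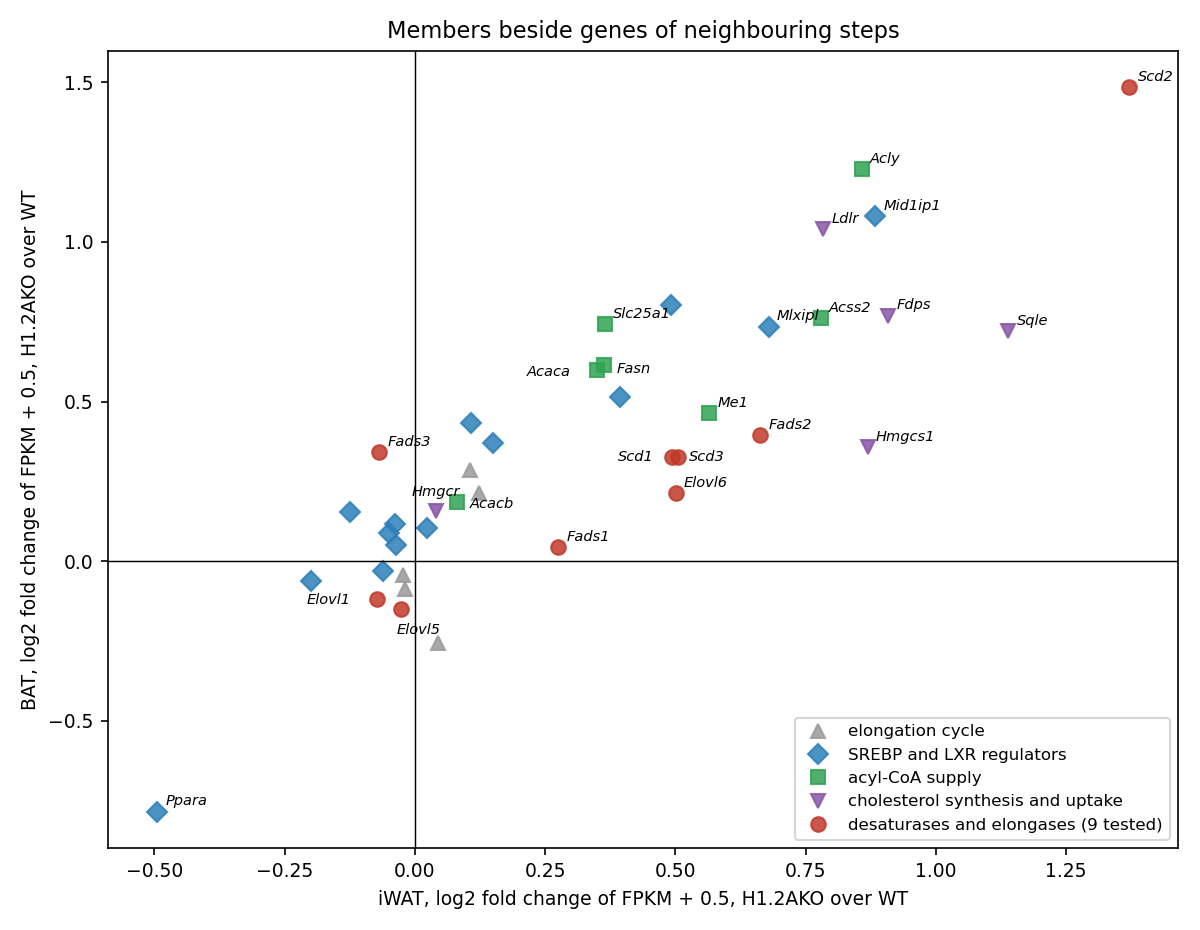
Log2 fold change of FPKM + 0.5, H1.2AKO over WT, in iWAT (horizontal axis) and BAT (vertical axis), for the 9 members tested (circles) and 4 neighbouring gene lists. Each symbol is 1 gene tested in both depots, and no gene shown passed the threshold. Scd2 lies farthest to the upper right (1.37 and 1.49), the acyl-CoA supply genes (squares) all lie above 0 on both axes, 4 of 7 doing so on the iWAT axis without iWAT WT replicate 2, and the elongation cycle genes (triangles) lie on both sides of 0.

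These differences were read beside the state of the libraries. Within iWAT the lowest values of Scd1, Scd2, Elovl6, Fasn, Acly and Sqle were all in WT replicate 2. Without that library the iWAT difference of Scd2 was 0.83 and that of Fads2 0.48, and over all omissions of 1 library Scd2 lay between 0.83 and 1.92 in iWAT and between 1.24 and 1.73 in BAT, positive in each. Without both iWAT WT replicate 2 and BAT H1.2AKO replicate 1, which leaves 1 pool in each of those groups, Scd2 was at 0.83 (adjusted p = 0.598) in iWAT, 1.73 (adjusted p = 0.144) in BAT and 1.28 (adjusted p = 0.143) averaged, and Fads2 at 0.48, 0.39 and 0.44. By limma 0 members passed there, whereas the count of all genes called went from 0 to 105 in iWAT, from 0 to 2 in BAT, from 1 to 27 averaged and from 0 to 113 for the interaction. Relative to 10 adipocyte markers, whose mean log2 level lay between 8.02 and 8.52 in the 8 libraries, the difference of Scd2 was 1.57 in iWAT and 1.55 in BAT, where the median of all genes moved to 0.19 and 0.08. With the muscle level as a covariate it was 1.50 and 1.23. The muscle genes themselves went in opposite directions. Of 11 tested, 10 were positive in iWAT (median 1.75) and 11 negative in BAT (median -2.88), 0 passing. In BAT both H1.2AKO pools (103 and 1635 FPKM summed) lay below both WT pools (3074 and 3480). The covariate can therefore take up part of the genotype difference there. The 6 macrophage markers and 6 stromal markers each had a negative difference in both depots, with medians of -0.22 and -0.16 for macrophages and -0.10 and -0.40 for stroma, 0 passing. Of the 10 adipocyte markers themselves, 8 were negative in iWAT (median -0.19, 3 at an unadjusted p under 0.05) and 7 in BAT (median -0.14, 1 at an unadjusted p under 0.05), and 0 passed. Other markers went the opposite way. Of 5 lymphocyte markers tested in BAT, 4 were positive (median 0.55, 3 at an unadjusted p under 0.05), whereas 5 of 7 were negative in iWAT (median -0.18). Skin and sebaceous gland markers, the tissue in which Scd3 is known, were positive in 4 of 4 tested in iWAT (median 0.50) and 3 of 3 in BAT (median 0.39), Elovl3 among them. Their summed level was 5.48 and 3.20 FPKM in WT against 6.63 and 7.92 in H1.2AKO in iWAT, and 21.6 and 21.9 against 26.8 and 32.4 in BAT. Most of the BAT sum came from Elovl3, an elongase also known from brown fat, which ranged from 17.3 to 25.7 FPKM there. Krt79 ranged from 2.65 to 5.24 FPKM in BAT, whereas Krt5 and Krt14 did not exceed 0.0365 and Awat2 did not exceed 0.257. The BAT sum is therefore not a measure of skin content. All 4 endothelial markers were positive in both depots (medians 0.06 and 0.06). Of 6 Schwann cell markers, 4 were positive in iWAT (median 0.05) and 4 negative in BAT (median -0.32, 2 at an unadjusted p under 0.05). Brown adipocyte markers were positive in 4 of 6 tested in iWAT (median 0.19) and 6 of 9 in BAT (median 0.16). Of the 9 handling genes, 7 were positive in iWAT (median 0.52, beside 0.49 for the members) and 4 in BAT (median -0.02). Their summed level in iWAT was 145 and 69.8 FPKM in WT against 135 and 182 in H1.2AKO. By limma 0 of these markers and handling genes passed in either depot. The part of these cell types and of handling in the member values was not tested.

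No difference between the depots in the effect of the deletion was detected for the members. For the interaction of tissue and genotype 0 of 9 members passed, against 0% of 14945 genes. The difference of the genotype effects, BAT minus iWAT, was 0.11 for Scd2 with a 95% interval from -1.17 to 1.39, and -0.27 for Fads2 with an interval from -0.93 to 0.39. For Fads2 that interval reaches past its effect in either depot.

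The second question was how the depots differ. In WT mice Fads1, Fads3 and Elovl1 were lower in BAT than in iWAT and Elovl5 was higher, 4 of the 8 members tested, against 53.5% of 14094 genes (28.2% lower and 25.3% higher). Fads1 was 2.50 times lower in BAT, at 9.77 ± 0.482 (SD, n = 2) against 24.4 ± 3.54 FPKM (log2 difference -1.27, SE 0.13, adjusted p = 0.000385). Fads3 was 3.02 times lower, at 18.1 ± 8.53 against 54.6 ± 8.43 FPKM (-1.64, SE 0.36, adjusted p = 0.00829). Elovl1 was 1.91 times lower, at 7.34 ± 1.90 against 13.99 ± 0.0280 FPKM (-0.91, SE 0.17, adjusted p = 0.00453). Elovl5 was 1.37 times higher, at 35.7 ± 1.36 against 26.1 ± 3.42 FPKM (0.45, SE 0.12, adjusted p = 0.0196).

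H1.2AKO mice showed the lower level in BAT again for Fads1 (-1.50, SE 0.13, adjusted p = 0.000186), Fads3 (-1.23, SE 0.36, adjusted p = 0.0257) and Elovl1 (-0.95, SE 0.17, adjusted p = 0.00350). Fads2 joined them (-0.57, SE 0.19, adjusted p = 0.0437), so that 4 of 9 were called, against 54.1% of 14079 genes (27.9% lower and 26.2% higher). Elovl5 was at 0.33 (SE 0.12, adjusted p = 0.0581), near the threshold, and was called higher in BAT of H1.2AKO mice in 7 of 24 alternatives, among them median-ratio scaling (0.37, adjusted p = 0.0433), limma-voom (0.33, adjusted p = 0.0439), omission of BAT H1.2AKO replicate 2 (0.45, adjusted p = 0.0346) and levels relative to adipocyte markers (0.49, adjusted p = 0.0184). Fads2 in WT was at -0.31 (SE 0.19, adjusted p = 0.226), and its interaction, given above, did not pass. The total shares of members called were thus near those of all genes. By direction, 3 of 8 were called lower and 1 of 8 higher in WT, and 4 of 9 lower and 0 of 9 higher in H1.2AKO. With so few members these shares are imprecise. The calls of Fads1 and Elovl1 held when any 1 library was left out, in both genotypes. That of Fads3 held in WT and was lost in H1.2AKO without either iWAT H1.2AKO pool or BAT H1.2AKO replicate 1 (adjusted p of 0.0778 to 0.134) and with the muscle level as a covariate (-1.12, adjusted p = 0.0717), and that of Fads2 was lost without any BAT pool or iWAT H1.2AKO replicate 2 (0.0577 to 0.223). Fads2 also missed the threshold with no filter on low values (0.0710), with median-ratio scaling (0.0573), relative to adipocyte markers (-0.41, 0.0765) and fitted without the WT libraries (0.0518). Elovl5 lost its WT call without iWAT WT replicate 2 or either BAT WT pool (0.0568 to 0.0953).

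Over both genotypes, all 4 BAT libraries lay below all 4 iWAT libraries for Fads1, Fads3 and Elovl1, against 31.5% of 14455 genes, and above them for Elovl5, against 28.7%. For each of these 4 members the exact permutation of depot gave p = 0.0286 (2-sided, 0.0715 after adjustment over the 10 members), the smallest that 70 permutations allow. This permutation too takes the pools of the depots as independent. Scd1 had an exact permutation p of 0.0571 and overlapped between depots, with log2 differences of 0.73 (SE 0.39) in WT and 0.57 (SE 0.39) in H1.2AKO, neither past the threshold. Scd2 (-0.22 in WT, SE 0.38) and Elovl6 (0.52, SE 0.38) did not pass either. Without iWAT WT replicate 1, Scd1 and Elovl6 were called higher in BAT of WT mice (1.36, adjusted p = 0.00618, and 1.08, adjusted p = 0.0300), and Scd1 also in H1.2AKO (0.57, adjusted p = 0.0487), where it was called too in a fit without the WT libraries (adjusted p = 0.0410). Relative to adipocyte markers Scd1 was again called in WT (1.03, adjusted p = 0.0312), as it was with quantile normalization (0.94, adjusted p = 0.0326). Without iWAT WT replicate 2 it was at 0.11 in WT (adjusted p = 0.721) and Elovl6 at -0.03, and scaled to the listed reads Scd1 was at 0.28 in WT and 0.03 in H1.2AKO. Without both iWAT WT replicate 2 and BAT H1.2AKO replicate 1, the depot difference in H1.2AKO was -0.86 for Fads3 and -0.58 for Fads2.

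**Figure D5:**
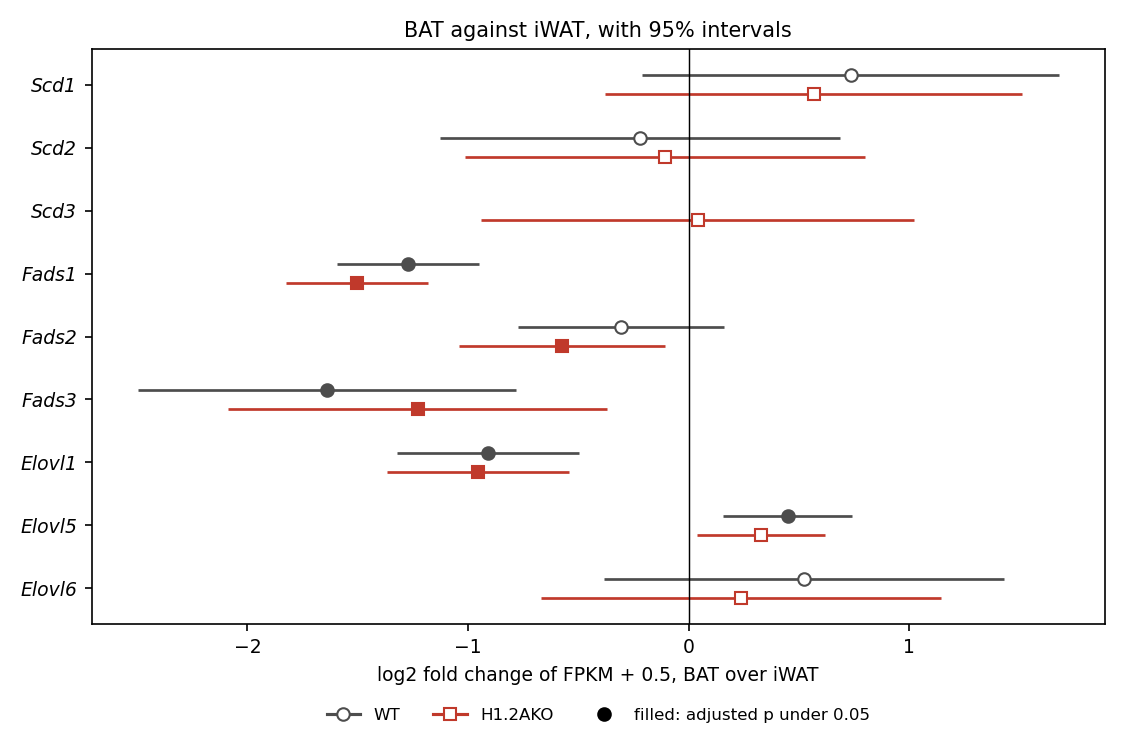
Log2 fold change of FPKM + 0.5, BAT over iWAT (horizontal axis), in WT (circles, 8 members tested) and H1.2AKO (squares, 9 tested), with unadjusted 95% intervals from limma. Filled symbols passed an adjusted p of 0.05, which in both genotypes holds for Fads1, Fads3 and Elovl1 below 0, and in 1 genotype each for Fads2 and Elovl5.

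The depot comparison depends on how libraries are scaled. Mitochondrially encoded transcripts took 31.4% to 34.3% of the summed FPKM in BAT and 11.1% to 13.5% in iWAT. The divisor implied by the deposited FPKM was 0.873 to 0.955 of the listed reads in BAT and 1.23 to 1.33 in iWAT. In BAT it was thus below the listed reads themselves, and how it was set is not given in the sources used here. Median-ratio factors on the deposited values were 0.9895 to 1.031, so median-ratio scaling stayed close to the main fit. On reads per kilobase scaled to the listed reads of each library the median of all genes moved to -0.41 in WT and -0.48 in H1.2AKO, and 1715 genes were higher and 6879 lower in BAT of WT mice, in place of 3571 and 3973. Elovl5 was then at -0.00 in WT and -0.20 in H1.2AKO, so its call depended on the scaling. Fads1 (-1.72), Fads3 (-2.09) and Elovl1 (-1.35) stayed lower in WT on that scale. Relative to adipocyte markers they were also lower (-0.98, -1.34 and -0.61), where the median of all genes was 0.28 and 5166 genes were higher and 2562 lower, and Fads2 was at -0.01. The 10 adipocyte markers differed between the depots themselves. In BAT 2 were called higher and 4 lower in WT, and 4 higher and 4 lower in H1.2AKO. Values relative to them, with the calls of Scd1 and Elovl5 given above, therefore depend on these markers. Without mitochondrially encoded genes 2384 genes were higher and 5380 lower, with a median of -0.22, and Elovl5 lost its WT call (0.21, adjusted p = 0.163). Fads2 in WT, not called as deposited, was called lower on that scale (-0.53, adjusted p = 0.0403) and on listed reads (-0.74, adjusted p = 0.00959), so its call too depended on the scaling.

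Other cell types moved with the depots. All 7 lymphocyte markers, all 6 macrophage markers and all 6 stromal markers were called lower in BAT in both genotypes. Their summed levels were 317 to 380 FPKM in iWAT against 7.69 to 12.8 in BAT for lymphocytes, 482 to 590 against 89.9 to 142 for macrophages and 706 to 876 against 141 to 242 for stroma, and 0 of these markers were listed at 0 in any library. Their part in the lower Fads1, Fads3 and Elovl1 of BAT was not tested. Endothelial markers went the other way, at 63.2 to 71.2 FPKM in iWAT against 115 to 130 in BAT. All 6 Schwann cell markers were lower in BAT (4 called in WT, 5 in H1.2AKO), and all 9 brown adipocyte markers were called higher in both genotypes. Muscle genes reversed between the genotypes. All 11 tested were higher in BAT of WT mice (median 1.89, 2 called), whereas 9 of 11 were lower in H1.2AKO (median -2.80, 0 called). The part of muscle in the depot differences of the members was not tested.

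Enzymes outside the 10 members also differed between the depots. Elovl3, the elongase of very long saturated chains known from brown fat, was at 1.90 and 0.747 FPKM in iWAT of WT mice and 17.3 and 17.7 in BAT of WT mice, and at 2.09 and 3.67 and at 20.2 and 25.7 in H1.2AKO. The log2 difference in WT was 3.38 (SE 0.34, adjusted p = 0.000330). It was the only one of the 4 other elongases to be tested, since Elovl2, Elovl4 and Elovl7 stayed under the minimum. The dihydroceramide desaturases Degs1 (-0.54, SE 0.11, adjusted p = 0.00587) and Degs2 (-1.78, SE 0.20, adjusted p = 0.000525) were both lower in BAT of WT mice, and Fads6 was not tested. The counts that follow stand beside 25.3% of all genes called higher and 28.2% called lower. Of 6 genes of the elongation cycle, 1 was called higher (Hsd17b12, 0.67) and 1 lower (Hacd4, -1.63) in BAT of WT mice. Of 7 peroxisomal genes 5 were called higher, among them Abcd3 (2.02) and Hsd17b4 (0.80), and Abcd2, the transporter of very long polyunsaturated acyl-CoA, was called lower (-1.61). All 4 tested acyl-CoA synthetases were called higher, with Acsl5 at 2.06. These counts depended on the scaling. On listed reads 3 of 7 peroxisomal genes were called higher and 2 lower (median -0.06), 2 of 4 synthetases higher, and 0 of 6 elongation cycle genes higher and 2 lower. Relative to adipocyte markers 6 of 7, 4 of 4 and 3 of 6 were called higher, and 1 of the 2 dihydroceramide desaturases was called lower. Elovl3 was called higher under each of the 5 scalings tried.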

How the data were processed

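Poly-A RNA of pooled iWAT or BAT was sequenced in 8 libraries. HISAT2 2.0.5 and GRCm38.p6 (mm10) are listed in the processing notes of the submitters. For the counting program, a name is not given in the sources used here. Per gene, the authors deposited FPKM. Products of FPKM and gene length gave whole reads for 100% of values (tolerance 0.01), 16118634 to 17480325 per library. Intervals on reads cover counting error only.

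Libraries were grouped by label. A single limma 3.58.1 fit (R 4.3.3, trended empirical Bayes, 4 residual and 2.57 prior degrees of freedom) on log2(FPKM + 0.5) had 1 mean per tissue and genotype. Fold changes on this scale understate those of low genes. Genes with a mean of at least 0.5 FPKM in the 4 libraries of a comparison were tested, with Benjamini-Hochberg adjustment over all of them and a threshold of 0.05. The fit was also run on simulated counts with the same dispersion for every gene. That run does not cover pools as uneven as those of iWAT WT. Exact permutation tests were 2-sided, and those of 2 pools against 2, where an exact test cannot go below p = 0.333, are not shown.

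Members and lists were chosen with earlier results of these data known. Genes named were the members, Hist1h1c, some of the 3 list genes of smallest p in the averaged genotype and the WT depot comparison, the leading markers and the 5 nearest genes of Scd1, Scd2, Fads2 and Elovl6, of which 1 row has no gene name and some genes are not reported here. Other genes of a list were named where the whole list is given. All 150 list genes were found, 5 by identifier. Shared words came from GENCODE vM21 transcripts. Alternatives were other pseudocounts, filters, scalings, moderation, limma-voom on recovered reads, a replicate block, omission of each library, adipocyte-relative levels and a muscle covariate. Scaling to listed reads, a crossed block and omission of iWAT WT replicate 2 and BAT H1.2AKO replicate 1 together were added after the data were seen.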

Additional observations from a re-analysis of the deposited data

How the results depend on the processing

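There were 23 planned and 3 added alternatives. Each genotype difference of a member had a value under 25 of them (24 for Scd3) and each interaction under 24 (23 for Scd3). Among these values 0 passed the threshold, and Scd2 and Fads2 stayed positive in both depots. The count of all genes called was small and moved. In iWAT (0) it was 11 with no filter, 5 with limma-voom and 1 to 9 when 1 library was left out. In BAT (0) it was 6 with a pseudocount of 0.1, 2 with 1, 3 with quantile normalization, 6 with protein-coding genes, 20 with limma-voom, 4 relative to adipocyte markers, 1 with the muscle covariate and 0 to 20 without 1 library. In the average (1, or 0 to 5 without 1 library) it was 5 with a pseudocount of 0.1, 2 with 1, 2 with protein-coding genes, 30 with limma-voom, 4 on listed reads, and 0 with no filter, without mitochondrially encoded genes, with the muscle covariate or with tissues averaged per number. For the interaction (0) it was 3 with a pseudocount of 0.1, 5 with no filter and 0 to 2 without 1 library. Members called between depots in H1.2AKO (4) were 2 to 6 without 1 library. Without both iWAT WT replicate 2 and BAT H1.2AKO replicate 1, an omission chosen after the data were seen that leaves those groups with 1 pool each (assumed to vary like the others), the counts were 105 in iWAT, 2 in BAT, 27 in the average, 113 for the interaction and 2 members between depots in H1.2AKO. Scd1 (-0.13) and Elovl6 (-0.056) in iWAT, Elovl6 (-0.034) between depots in WT, Scd2 (0.13) between depots in H1.2AKO and the interactions of Scd1 (0.56), Scd3 (0.52) and Elovl6 (0.48) then changed sign, while those of Scd2 (0.90) and Fads3 (0.94) kept theirs.

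No source says that a replicate number marks shared mice, and with 2 numbers the data do not settle it. Same-numbered deviations correlated at -0.16 between genotypes in iWAT and 0.09 in BAT, and across depots at 0.14 in WT and 0.11 in H1.2AKO, over 12594 genes. With the replicate block 0 genes were called in the average and 3 members between depots in H1.2AKO, where Fads2 had an adjusted p of 0.0644, and no other call changed. With the iWAT numbers crossed, 0 genes were called in iWAT, BAT, the average and the interaction.

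Several uncalled differences changed sign, and the cause was not tested. Relative to adipocyte markers, iWAT genotype differences were 0.13 (Fads3), 0.12 (Elovl1) and 0.17 (Elovl5), averaged ones 0.034 (Elovl1) and 0.043 (Elovl5), depot differences of Scd2 0.074 in WT and 0.060 in H1.2AKO, and its interaction -0.014. With the muscle covariate they were 0.065 (Elovl5, iWAT), -0.082 (Scd1, BAT), -0.032 (Fads1, BAT), -0.068 (Elovl6, BAT), -0.094 (Scd3, depots in H1.2AKO) and -0.27 (Scd2, interaction). Without mitochondrially encoded genes they were 0.0021 (Elovl5, iWAT), -0.013 (Fads1, BAT) and, between depots in H1.2AKO, -0.14 (Scd3) and -0.093 (Elovl6). On listed reads they were -0.032 (Fads1, BAT), -5e-04 (the called Elovl5 between depots in WT) and, in H1.2AKO, -0.27 (Scd3), -0.20 (Elovl5) and -0.30 (Elovl6). Without 1 library the ranges were, in iWAT, -0.13 to 1.11 (Scd1), -0.23 to 0.088 (Fads3), -0.16 to 0.10 (Elovl5) and -0.056 to 1.06 (Elovl6). In BAT they were -0.011 to 0.10 (Fads1), -0.14 to 0.83 (Fads3) and -0.37 to 0.13 (Elovl1), and averaged -0.11 to 0.38 (Fads3) and -0.22 to 0.029 (Elovl1). Between depots they were -0.77 to 0.32 (Scd2) and -0.034 to 1.08 (Elovl6) in WT and -0.41 to 0.20 (Scd2), -0.43 to 0.51 (Scd3) and -0.0044 to 0.48 (Elovl6) in H1.2AKO. For the interaction they were -0.79 to 0.45 (Scd1), -0.43 to 0.66 (Scd2), -0.65 to 0.29 (Scd3), -0.074 to 0.90 (Fads3), -0.30 to 0.20 (Elovl1), -0.25 to 0.011 (Elovl5) and -0.84 to 0.27 (Elovl6).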
